A study of Mus musculus with 4 samples.

Results

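Transcript levels of 8 genes of cholesterol export and cholesterol synthesis were examined in mouse embryonic stem cells that carry a knockout or a conditional knockout of the gene for UTX. The genes were Abca1 and Abcg1 (export), Hmgcs1, Idi1, Sqle and Msmo1 (synthesis), and Srebf2 and Insig1 (control of synthesis). None of the 8 is an uptake receptor. All probe sets that the array's annotation assigned to 1 of these genes alone were taken, which gave 18 of the 45101 probe sets on the array and 8 of the 18193 genes named by such probe sets.

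The study compared UTX knockout (KO) lines 1 and 2 with UTX conditional knockout (cKO) lines 1 and 2, each line on 1 Affymetrix Mouse Genome 430 2.0 array. UTX is a histone H3 lysine 27 demethylase encoded by the X-linked gene Kdm6a. Lines of both groups had been kept on irradiated fibroblast feeders in medium with LIF (1000 units per ml) and 15% serum, then passaged 2 times on gelatin to clear the feeders. The labels do not say how the KO lines were derived, whether a recombinase was given to the cKO lines, or whether lines of the same number share an origin. Nothing says that the RNA came from separate occasions, so the p-values reflect only how far these 4 samples vary, and some of that variation may be technical.

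Cells obtain cholesterol by making it from acetyl-CoA through the mevalonate pathway and by taking up lipoproteins, and they lose it by export to lipoprotein particles. When membrane sterol is low, the transcription factor SREBP2 (encoded by Srebf2) is escorted by SCAP to the Golgi, cut by 2 proteases, and turns on the synthesis genes. INSIG1 holds the complex in the endoplasmic reticulum when sterol is plentiful, and Insig1 is itself an SREBP target. When sterols accumulate, oxysterols activate the nuclear receptors LXR, which pair with RXR and turn on the exporters ABCA1 and ABCG1.

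RefSeq promoter windows (build GRCm38.p6) were found for 6 of the 8 genes, and 3 are shown because they stand for the exporter that changed, the synthesis gene with a match to the sterol regulatory element, and the partner of the sterol sensor SCAP. Each is the 250 bases before the RefSeq start, 5′ to 3′ on the gene's own strand. The Abca1 window is chr4:53159896-53160145 on the minus strand, the Hmgcs1 window chr13:119690101-119690350 on the plus strand and the Insig1 window chr5:28071162-28071411 on the plus strand. Capitals mark matches on either strand to TCACNCCAC (a sterol regulatory element, bound by SREBPs), CACGTG (an E-box) or CCAAT (bound by NF-Y, a partner of SREBPs), and the last reads ATTGG when it lies on the other strand.
Abca1: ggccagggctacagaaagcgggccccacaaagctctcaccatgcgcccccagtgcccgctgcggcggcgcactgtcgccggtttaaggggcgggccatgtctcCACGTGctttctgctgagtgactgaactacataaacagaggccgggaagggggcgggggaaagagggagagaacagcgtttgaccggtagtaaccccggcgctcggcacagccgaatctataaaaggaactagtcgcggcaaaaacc
Hmgcs1: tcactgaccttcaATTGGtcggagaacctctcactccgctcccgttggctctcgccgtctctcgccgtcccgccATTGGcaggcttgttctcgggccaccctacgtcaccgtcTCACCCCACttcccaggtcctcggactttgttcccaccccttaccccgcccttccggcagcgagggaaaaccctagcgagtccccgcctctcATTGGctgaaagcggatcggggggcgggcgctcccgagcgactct
Insig1: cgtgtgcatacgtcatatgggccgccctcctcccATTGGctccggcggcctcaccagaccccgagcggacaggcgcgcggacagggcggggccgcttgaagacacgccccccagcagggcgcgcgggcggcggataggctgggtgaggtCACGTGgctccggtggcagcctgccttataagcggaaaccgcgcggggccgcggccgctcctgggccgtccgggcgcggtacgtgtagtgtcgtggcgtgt

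The sterol regulatory element matched 1 of the 6 member windows, that of Hmgcs1, starting 137 bases before the start, against 1.05% of all 32851 windows of this length. CCAAT matched in 5 of the 6 windows (33.8% of all windows), every one but Abca1, with 3 matches in Hmgcs1 at 237, 176 and 45 bases before the start. CACGTG matched in 2 of the 6 (6.02% of all windows), Abca1 at 147 bases and Insig1 at 101 bases before the start. A direct repeat of AGGTCA with 4 bases between the copies, bound by LXR with RXR, matched in 0 of the 6 and in 0.0152% of all windows. Only exact matches to the given letters were searched for each motif, and those of this repeat were rare in all windows. The lack of a match therefore does not say whether variant LXR sites or variant sterol regulatory elements lie in these 6 windows. These are letter matches in a short window and not measured binding.

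Of the 8 genes, 1 was called higher in KO, the exporter Abca1, and 0 were called lower, at an adjusted p under 0.05 in limma. Of all 10916 genes tested, 2.20% were called, 0.632% higher and 1.57% lower, and 13.8% had an unadjusted p under 0.05, as had 2 of the 8. Over the 8 genes the median log2 fold change was -0.12 (3 positive, 5 negative), beside 0.01 over all genes tested, where 51.4% were positive. The member median turned positive, to 0.027, with KO line 2 left out and to 0.069 with the mean of probe sets, so its sign was not settled. The genes that make cholesterol and the genes that control its synthesis had log2 fold changes from -0.25 to 0.20, while Abca1 lay at 1.69 and Abcg1 at 0.69. The plot of member signals shows this line by line.

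**Figure D1:**
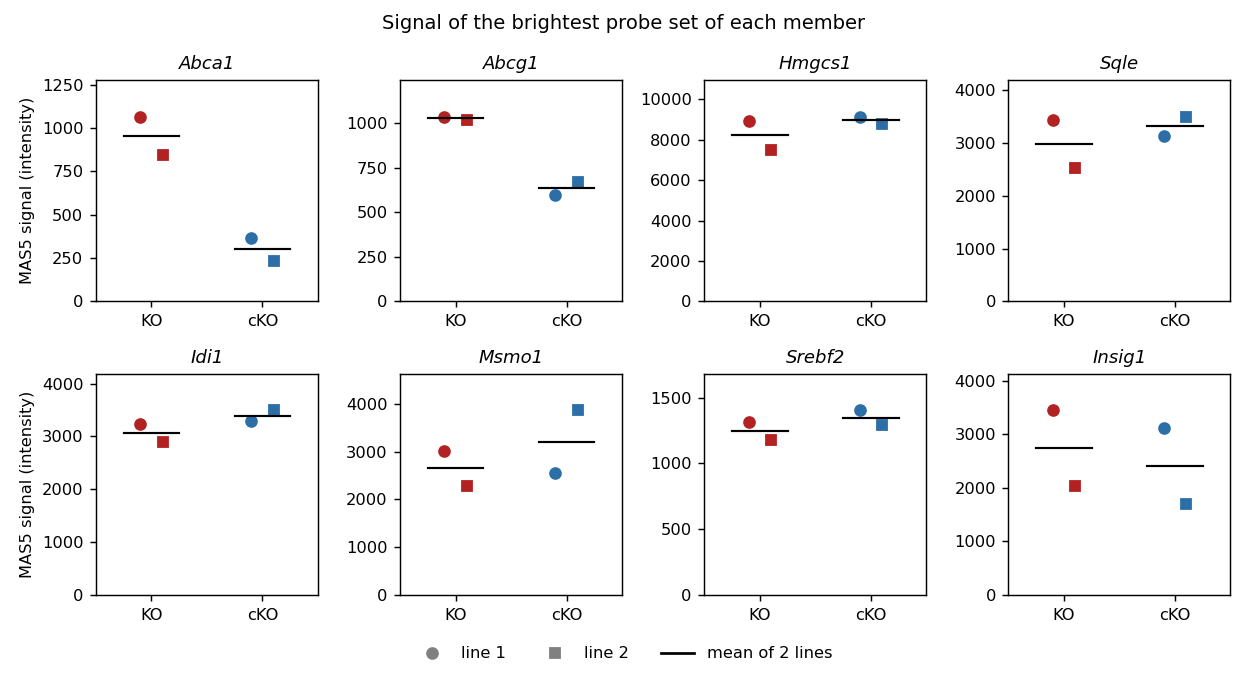
MAS5 signal (intensity, y axis from 0) of the brightest probe set of each of the 8 genes, in KO lines (left) and cKO lines (right); circles are line 1, squares line 2 and bars the mean of 2 lines. The KO and cKO points are fully apart with KO higher for Abca1 and Abcg1, KO is lower in both lines for Idi1, and the groups overlap for the other 5.

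Abca1 encodes the transporter that loads cholesterol and phospholipid onto lipid-poor apolipoprotein A-I. Its brightest probe set (1421840_at) read 1065 and 847 in KO lines 1 and 2, against 364 and 234 in cKO lines 1 and 2. Both KO values lay above both cKO values, an order that 21.4% of all genes tested shared, and the lowest KO value was more than 2 times the highest cKO value. The mean signal was 956 ± 154 in KO and 299 ± 91.7 in cKO (SD, n = 2 each), 3.20-fold higher in KO. In the fit this was a log2 difference of 1.69 (SE 0.25, 95% interval 1.11 to 2.26, adjusted p = 0.024 in limma), and Abca1 ranked 17th of 10916 genes by increase. Between lines of the same number the difference was 1.54 for number 1 and 1.83 for number 2 on the log2 scale.

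The Abca1 call rested on 1 of its 3 probe sets. Probe set 1421839_at read 59.2 and 18.4 in KO lines and 38.6 and 20.2 in cKO lines, and probe set 1450392_at read 31.9 and 29.5 in KO lines and 28.6 and 15.2 in cKO lines. The mean of each over the 4 arrays lay under the probe set filter of 53.8, and neither was tested. With the mean of the 3 probe sets the log2 fold change of Abca1 was 0.79 (adjusted p = 0.504 in limma), and without the variance trend its adjusted p was 0.0743, so both alternatives ended the call.

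Abcg1 encodes the transporter that passes cholesterol to mature HDL particles. Its brightest probe set (1423570_at) read 1038 and 1017 in KO lines 1 and 2, against 598 and 671 in cKO lines 1 and 2. The KO lines were close to each other and both lay above both cKO lines, an order that 21.4% of all genes tested shared. The mean was 1027 ± 14.4 in KO and 635 ± 51.3 in cKO (SD, n = 2 each), 1.62-fold higher in KO. The log2 fold change of 0.69 (SE 0.16, 95% interval 0.32 to 1.06) had an unadjusted p of 0.00296 and an adjusted p = 0.0858 in limma, which missed the threshold. Its dim second probe set (1455221_at) read 65.3 and 103 in KO lines and 57.3 and 85.1 in cKO lines, with overlapping groups and a log2 fold change of 0.22 (adjusted p = 0.914).

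Markers of feeder fibroblasts, which could remain in these cultures, had a lower summed signal in KO. The summed signal of 18 measured feeder markers was 16525 and 16776 in KO lines 1 and 2, against 31540 and 23697 in cKO lines 1 and 2. Of these 18, 14 were above the filter and none was listed at 0 on any array. Called lower were 3 of the 14 (Tagln, Col5a1 and Thy1), beside 1.57% of all genes tested. An unadjusted p under 0.05 in limma was found for 10 of the 14, beside 13.8% of all genes tested. Of the 14, 13 were lower in KO by the fitted log2 fold change, whose median over the list was -0.81, and 1 was higher (Fn1). Most of each sum came from Tagln, Acta2 and Fn1, which were set aside after their values were seen. The other 15 markers summed to 2118 and 2224 in KO lines and 4859 and 3295 in cKO lines. The call of Thy1 was lost with no filter, the mean of probe sets, no variance trend or a robust prior, and with KO line 2 (adjusted p = 0.0574 in limma) or cKO line 2 (0.163) left out. Col5a1 lost its call with no filter, the mean of probe sets or no variance trend, and with cKO line 1 left out (0.0938), and Tagln lost its call with no variance trend (0.0503). For 10 primitive endoderm markers the sums were 845 and 519 in KO lines and 1450 and 1084 in cKO lines, and 8 of the 10 lay below the filter. All 9 embryonic stem cell markers were above the filter, with sums of 94881 and 87433 in KO lines and 81020 and 77834 in cKO lines. Of these 9, 6 were positive and 3 negative by the fitted log2 fold change, and 0 were called. Their values ran from -0.19 to 0.94 with a median of 0.37. An unadjusted p under 0.05 in limma was found for 4 of the 9, beside 13.8% of all genes tested. The part of these cells in the Abca1 and Abcg1 values was not tested. In bulk RNA a change in the share of cells and a change in RNA per cell cannot be told apart.

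The 4 synthesis genes did not pass the test, and their intervals bound any change of the brightest probe sets to less than 2-fold in either direction. Hmgcs1 encodes the cytosolic HMG-CoA synthase that feeds the mevalonate pathway. Its brightest probe set (1433443_a_at) read 8954 and 7509 in KO lines 1 and 2, against 9146 and 8772 in cKO lines 1 and 2. KO line 1 lay inside the cKO range, so the groups overlapped. The fitted log2 fold change was -0.13 (SE 0.11, 95% interval -0.40 to 0.14, adjusted p = 0.723 in limma).

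Idi1, isopentenyl-diphosphate isomerase, acts later in the same pathway on the isoprene units. Its brightest probe set (1451122_at) read 3231 and 2893 in KO lines 1 and 2, against 3289 and 3492 in cKO lines 1 and 2. Both KO values lay below both cKO values, an order that 21.2% of all genes tested shared, by a margin smaller than the spread within either group, at a log2 fold change of -0.15 (SE 0.13, 95% interval -0.45 to 0.16, adjusted p = 0.712).

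Sqle encodes squalene epoxidase, which makes the first oxygenated step toward sterols. Its only probe set (1415993_at) read 3445 and 2537 in KO lines 1 and 2, against 3145 and 3504 in cKO lines 1 and 2. KO line 2 was the lowest of the 4 arrays and KO line 1 lay within the cKO range. Sqle had a log2 fold change of -0.17 (SE 0.17, 95% interval -0.57 to 0.24, adjusted p = 0.769).

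Msmo1, formerly Sc4mol, encodes the sterol C4-methyl oxidase. Its bright probe set (1423078_a_at) read 3021 and 2291 in KO lines 1 and 2, against 2548 and 3861 in cKO lines 1 and 2. The 2 cKO lines were further apart than the 2 group means, which were 2656 ± 516 in KO and 3205 ± 928 in cKO (SD, n = 2 each). Its fitted log2 fold change was -0.25 (SE 0.23, 95% interval -0.79 to 0.28, adjusted p = 0.722). A second probe set of Msmo1 (1459627_at) stayed between 38.4 and 42.6 on all arrays, below the filter, and was not tested.

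Of the 2 control genes, Srebf2, which encodes the transcription factor SREBP2, was close to level. Its brightest probe set (1452174_at) read 1316 and 1174 in KO lines 1 and 2, against 1402 and 1291 in cKO lines 1 and 2. The groups overlapped, with a log2 fold change of -0.11 (SE 0.15, 95% interval -0.47 to 0.25, adjusted p = 0.829). The other Srebf2 probe set (1426744_at) read 1259 and 976 in KO lines and 1134 and 1125 in cKO lines, a log2 fold change of -0.03 (95% interval -0.45 to 0.39). SREBP2 is controlled mainly by cleavage of the protein, which arrays do not measure.

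Insig1 differed between line numbers more than between groups. Its only probe set (1454671_at) read 3442 and 2030 in KO lines 1 and 2, against 3116 and 1701 in cKO lines 1 and 2. Line 1 was 1.70 times line 2 in KO and 1.83 times line 2 in cKO, while the KO mean was 1.14 times the cKO mean. The log2 fold change was 0.20 (SE 0.33, 95% interval -0.58 to 0.98, adjusted p = 0.871 in limma), the widest interval of the 8 genes.

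Every tested probe set of the 8 genes was also fitted among all 20967 probe sets above the filter, of which 1.22% were called. Of the 15 tested member probe sets 1 was called, that of Abca1, and in this fit its call ended without a filter (adjusted p = 0.0524 in limma) and without the variance trend (0.153). The 12 probe sets of the 6 synthesis and control genes had log2 fold changes from -0.25 to 0.46, 5 positive and 7 negative (53.1% of all probe sets tested were positive), and the KO values lay above both cKO values in 0 of them and below both in 1. Across all probe sets tested, 20.8% had both KO values above and 19.3% had both below.

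**Figure D2:**
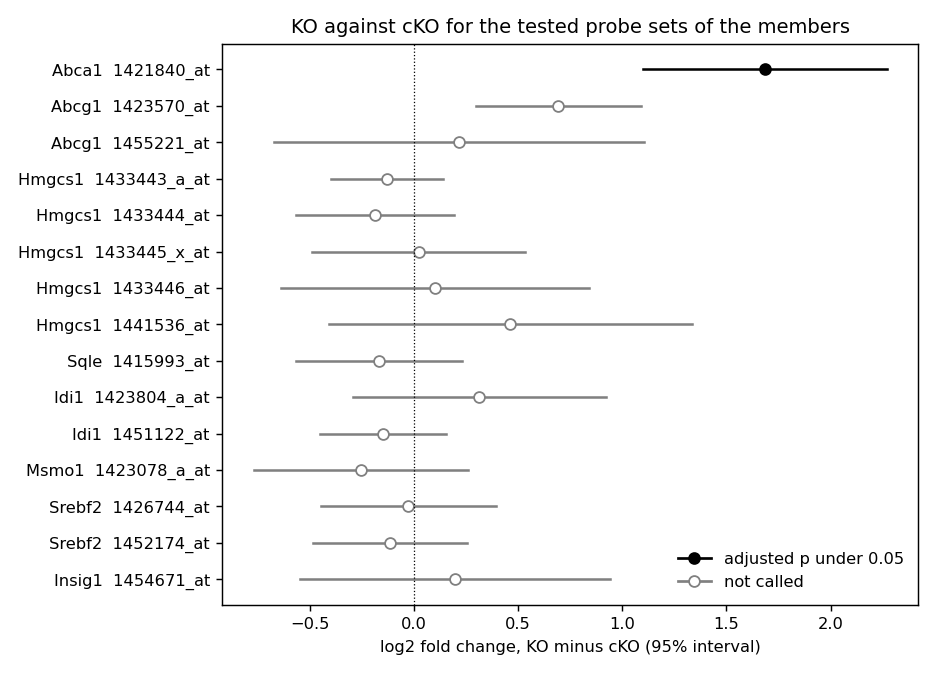
Log2 fold change, KO minus cKO, with its 95% interval in limma (x axis) for the 15 tested probe sets of the 8 genes (y axis); filled points are called at an adjusted p under 0.05. Both bright exporter probe sets have intervals above 0, only that of Abca1 is called, and all 12 probe sets of the synthesis and control genes have intervals that include 0.

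Probe sets of 1 gene did not always agree in sign. Hmgcs1 had 5 tested probe sets, with log2 fold changes of -0.13, -0.19, 0.02, 0.10 and 0.46, and adjusted p of at least 0.754 for each. The last, 1441536_at, was the dimmest, at 199 and 122 in KO lines and 152 and 82.2 in cKO lines. Idi1 had a second probe set (1423804_a_at) that read 1424 and 960 in KO lines and 1159 and 761 in cKO lines, a log2 fold change of 0.31 (95% interval -0.29 to 0.92), opposite in sign to the brighter one. Affymetrix names ending in a_at mark probe sets that match several transcripts of a gene, and names ending in x_at mark probe sets with probes that also match other sequences.

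Some of these probe sets differed between line numbers in the same direction in both groups, whereas for 5 of the 15 the line difference had opposite signs in KO and cKO. Both line 1 values lay above both line 2 values for 8 of the 15 tested member probe sets, beside 27.9% of all probe sets tested. These 8 include several probe sets of Hmgcs1 and of Srebf2, so they do not stand for 8 separate genes. For 9 of the 15 the mean difference between line numbers was larger than that between KO and cKO. Besides Insig1, the difference between line numbers was largest for Hmgcs1 probe set 1433446_at, at 1768 and 976 in KO lines 1 and 2 and 1567 and 955 in cKO lines 1 and 2. The brightest Hmgcs1 probe set had a mean line difference of 0.16 on the log2 scale against 0.78 for that one, so probe sets of 1 gene disagreed on the line difference as well. The median signal of the whole array was also higher in line 1, at 81.6 and 64.9 in KO lines and 76.6 and 64.4 in cKO lines, and its part in these values was not tested.

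**Figure D3:**
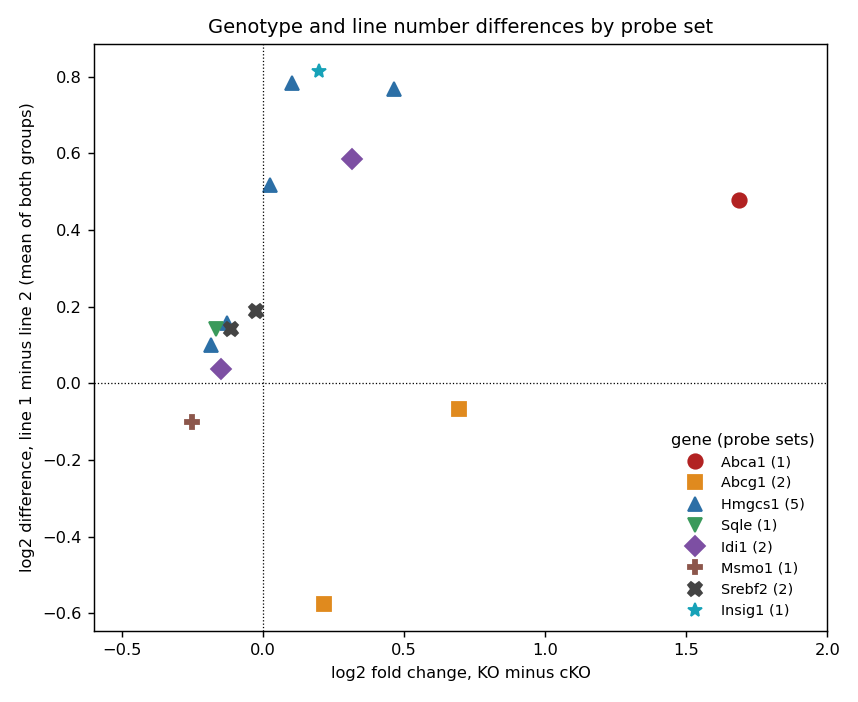
Each point is 1 tested probe set of the 8 genes, with its log2 fold change, KO minus cKO (x axis), and its log2 difference between line 1 and line 2 averaged over both groups (y axis). Abca1 and the bright Abcg1 probe set lie far to the right, whereas Insig1, 3 Hmgcs1 probe sets and 1 Idi1 probe set lie high, with a larger difference between line numbers than between KO and cKO.

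The rest of the synthesis pathway was read from lists of known enzymes. Of 7 measured genes of the mevalonate and isoprenoid steps, 0 were called and 0 had an unadjusted p under 0.05 in limma, with log2 fold changes from -0.16 to 0.16 and a median of -0.09. That median was 0.045 with the mean of probe sets, and -0.0005 with KO line 2 left out. Of 12 measured genes of the steps from squalene to cholesterol, 0 were called and 1 had an unadjusted p under 0.05, with a median of 0.04. That gene was Tm7sf2, a sterol C14 reductase, which read 595 and 543 in KO lines and 435 and 340 in cKO lines (log2 fold change 0.56, adjusted p = 0.244). Leaving the 4 members aside, 15 enzymes of both lists had a median of 0.04 and 10 of them were positive.

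Among 7 regulators of SREBP processing, 0 were called and 2 had an unadjusted p under 0.05 in limma. Mbtps2, the X-linked gene for the site-2 protease that releases SREBPs, read 1934 and 1859 in KO lines, against 1238 and 1268 in cKO lines. The groups did not overlap, an order with KO above that 21.4% of all genes tested shared. KO was higher by 0.60 on the log2 scale (SE 0.14, adjusted p = 0.0962 in limma). Srebf1, which encodes SREBP1 and is an LXR target, read 1334 in each KO line, against 1040 and 1007 in cKO lines (log2 fold change 0.38, adjusted p = 0.302).

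The LXR list had 1 called gene of 12 tested, Abca1 itself. Without Abca1 and Abcg1, 0 of 10 were called, 1 had an unadjusted p under 0.05 (Srebf1) and the median log2 fold change was 0.02. The other 9 included Mylip, which encodes the LXR-induced ligase that degrades lipoprotein receptors, at 0.00 (adjusted p = 0.996), Apoe at 0.21 (adjusted p = 0.426), Scd1 at 0.33 (adjusted p = 0.671) and Lpcat3 at 0.04 (adjusted p = 0.948). These 4 examples were picked with their values known. Pltp, also an LXR target, was placed on the efflux list and not on this one, and was called higher (0.81, adjusted p = 0.034 in limma). The count of 0 called of 10 holds only for the genes of this list.

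Of 9 tested genes of sterol and phospholipid efflux, 2 were called higher, beside 0.632% of all genes tested. None was called lower, 7 did not pass and 7 were positive, with a median log2 fold change of 0.48. Of the 9, 5 had an unadjusted p under 0.05 in limma, beside 13.8% of all genes tested. These were Abca1, Abcg1, Abca7 (0.48) and Pltp, higher in KO, and Cav1, lower in KO. Abca1 and Abcg1 are members, chosen with results of these data known. Without these 2, 1 of 7 tested genes was called higher and 3 had an unadjusted p under 0.05 in limma. The median of the 7 was 0.43, with 5 positive and 2 negative. Beside Abca1 the gene called higher was Pltp, the phospholipid transfer protein that remodels HDL and is also an LXR target. Pltp read 5141 and 5705 in KO lines 1 and 2, against 3357 and 2845 in cKO lines 1 and 2. The groups were far apart, and the fitted difference was 0.81 on the log2 scale (SE 0.14, adjusted p = 0.034 in limma). The Pltp call ended with median centring (0.79, adjusted p = 0.157), without a filter (adjusted p = 0.0528), without the variance trend (adjusted p = 0.118), with KO line 2 left out (0.73, adjusted p = 0.0522) and with cKO line 2 left out (0.69, adjusted p = 0.0692). Cav1, which encodes the caveolar protein caveolin-1, was at -1.20 (adjusted p = 0.149), the lowest value of the list and likewise picked with its value known.

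Of 4 tested oxysterol and bile acid enzymes, all 4 were positive and 1 was called higher, beside 0.632% of all genes tested. The called gene was Hsd3b7, a sterol dehydrogenase of bile acid synthesis. It read 587 and 659 in KO lines, against 293 and 345 in cKO lines, which the fit put at 0.96 on the log2 scale (SE 0.18, adjusted p = 0.0487 in limma). That call sat at the threshold and ended under 9 of 14 alternatives, with adjusted p up to 0.124 without cKO line 1. Of 11 tested genes of sterol uptake and intracellular transport, 0 were called and 3 had an unadjusted p under 0.05. The smallest adjusted p was that of Lipa, lysosomal acid lipase, which read 923 and 1047 in KO lines and 643 and 620 in cKO lines (log2 fold change 0.63, adjusted p = 0.116). Vldlr, the very low density lipoprotein receptor, read 95.9 and 131 in KO lines and 171 and 219 in cKO lines (-0.76, adjusted p = 0.284).

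**Figure D4:**
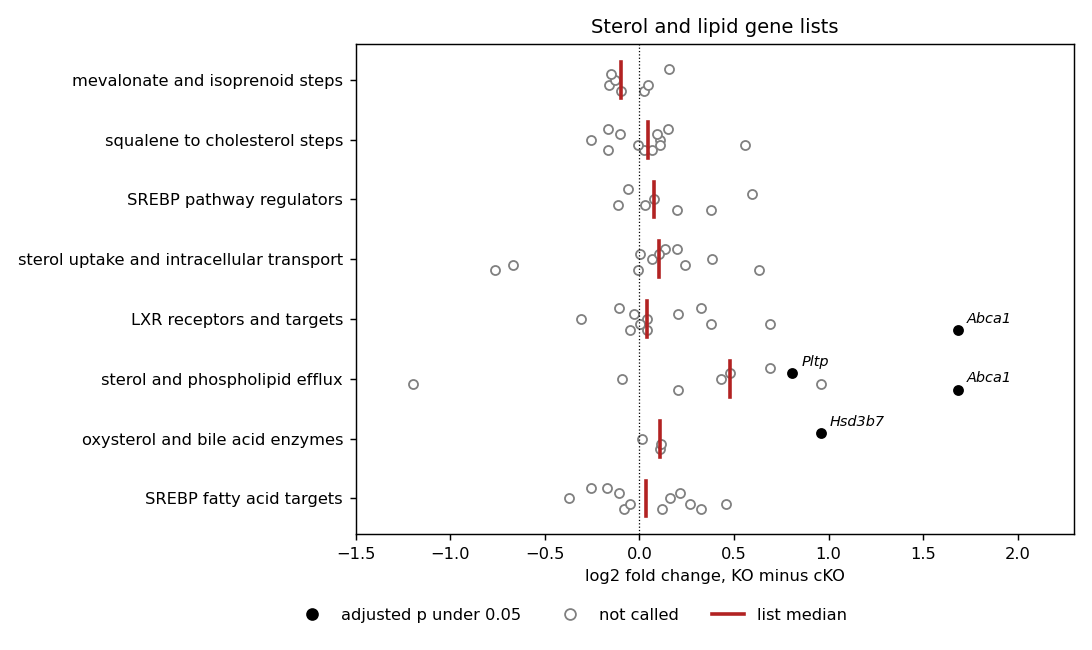
Log2 fold change, KO minus cKO (x axis), of every tested gene in 8 lists of sterol and lipid genes (y axis); filled points are called at an adjusted p under 0.05 in limma and red bars are list medians. The called genes are Abca1, which is on 2 lists, Pltp and Hsd3b7, and the medians of both synthesis lists lie at -0.09 and 0.04.

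The targeted gene Kdm6a read 265 and 198 in KO lines and 658 and 415 in cKO lines on its brightest probe set (log2 fold change -1.17, adjusted p = 0.0884 in limma), and the position of this probe set relative to the deletion was not used here. Kdm6a passed the threshold in limma with median centring (adjusted p = 0.0283), with KO line 1 left out (adjusted p = 0.00985) and with cKO line 2 left out (0.0156), whereas the mean of its probe sets gave -0.57 on the log2 scale (0.522). By Euclidean distance over the 4 arrays of log2 signals centred on each gene's mean, the genes with the pattern most like that of Abca1 were Mep1b (distance 0.06, log2 fold change 1.70) and Ntn1 (distance 0.06, log2 fold change 1.70). For Abcg1 they were Eaf2 (distance 0.03) and Rbl2 (distance 0.05), and for Insig1 they were Gdf9 (distance 0.03) and Fnip1 (distance 0.06), which were higher in line 1 than in line 2 in both groups. Fnip1 read 834 and 502 in KO lines 1 and 2, against 730 and 406 in cKO lines 1 and 2.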

How the data were processed

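RNA of 4 mouse embryonic stem cell lines was measured on 1 array each. The authors deposited 1 intensity per probe set and array, on a linear scale and computed by MAS5 according to the submitters' processing notes. Its version is not given in the sources used here. A trimmed mean (2% from each end) was 500 on every array, and the number of arrays limits the precision. Of 45101 probe sets, 34945 named 1 gene in the platform annotation, and 34741 of these took a current symbol from a RefSeq table (GRCm38.p6). For a gene the probe set of highest mean log2 signal was used, and the lower 40% of genes (below 77.7) or of probe sets (below 53.8) were left out.

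Values were converted to log2(signal + 4.79), 4.79 being the 10th percentile of all values, so that changes of dim genes are understated. The comparison, KO minus cKO, used limma 3.58.1 under R 4.3.3 (lmFit, eBayes with a variance trend, 2 residual and 5.13 prior degrees of freedom), with Benjamini-Hochberg adjustment over all genes or all probe sets and a threshold of 0.05. The procedure was tested on simulated data. Summaries and plots used Python 3.11.15. The members and gene lists were chosen with earlier results of these data known, so counts over them are descriptions. Named genes are Kdm6a, the 8 members and, of each list, up to 4 called genes (or 2 of smallest p). The primitive endoderm and embryonic stem cell marker lists are exceptions and are described without naming genes. Mylip, Apoe, Scd1, Lpcat3, Abca7, Cav1, Fn1 and Acta2 lie outside this rule and were named with their values known. The 2 genes nearest each member by pattern were also found and are given here for 3 members. Marker lists were those of feeder fibroblasts, primitive endoderm and embryonic stem cells. Other list genes without a probe set were not analysed here. Alternatives were the pseudocount, filter, scaling, probe set rule, variance model, line number as a block, threshold and each array left out.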

Additional observations from a re-analysis of the deposited data

How the results depend on the processing

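With 2 lines per group every value here is of limited precision, and dim probe sets carry signal close to background. Of 240 genes called, the count was 147 without a filter, 154 with the lower 60% left out, 129 with the mean of probe sets, 28 without the variance trend and 428 at a threshold of 0.1, and it ran from 228 to 432 with 1 array left out (432 without KO line 1). Of 255 probe sets called, it was 125 without a filter and 1 without the variance trend, and ran from 251 to 392 with 1 array left out (392 without cKO line 1). The cause of these shifts was not tested.

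Of the 8 members 1 was called, 0 with the mean of probe sets or without the variance trend, 2 at a threshold of 0.1, and 1 with any array left out. Abca1 stayed called in 12 of 14 alternatives, with a log2 fold change from 1.37 to 2.00 with 1 array left out, and Abcg1 from 0.61 to 0.78. With the mean of probe sets Hmgcs1 was at 0.055 and Idi1 at 0.083, opposite in sign to their brightest probe sets. With 1 array left out the values ran from -0.39 to 0.054 for Sqle, -0.55 to 0.046 for Msmo1 and -0.24 to 0.63 for Insig1. For single probe sets they ran from -0.092 to 0.53 for Abcg1 1455221_at, -0.38 to 0.010 for Hmgcs1 1433444_at, -0.31 to 0.35 for Hmgcs1 1433445_x_at, -0.33 to 0.53 for Hmgcs1 1433446_at and -0.21 to 0.16 for Srebf2 1426744_at, so that the sign of each of these turned, none of them called.

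List medians ran, with 1 array left out, from -0.15 to 0.17 for the squalene to cholesterol steps, 0.0052 to 0.29 for SREBP regulators, 0.013 to 0.25 for the LXR list and 0.029 to 0.26 for oxysterol enzymes. With the mean of probe sets the SREBP regulator median was 0.17 and the oxysterol median 0.54, and with the lower 60% left out the LXR median was 0.12 and the oxysterol median 0.96 on fewer genes. Called genes of the LXR list were 0 with the mean of probe sets or without the variance trend. Of the efflux list 1 was called without a filter, with median centring or with the mean of probe sets and 0 without the variance trend, and 1 to 3 with 1 array left out. Of the oxysterol list 0 were called without a filter, with the lower 60% left out, with quantile normalization, median centring, the mean of probe sets, no variance trend or a robust prior, and 0 to 1 with 1 array left out.

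The labels give both groups lines 1 and 2 but do not pair them. Deviations of the line 1 arrays from their group means correlated at 0.52 over 10916 genes. With the line number as a replicate block 1048 genes and 1682 probe sets were called, and 2 of the 8 members (Abca1, adjusted p = 0.00261, and Abcg1, adjusted p = 0.0172). The block called 1 SREBP regulator, 1 uptake and transport gene, 2 LXR list genes, 4 efflux genes and 1 fatty acid gene. Kdm6a had an adjusted p = 0.00811 with it.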

Other observations

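SREBPs also turn on genes of fatty acid synthesis and desaturation, and of 12 such genes tested 0 were called and 1 had an unadjusted p under 0.05 in limma, with 6 positive, 6 negative and a median log2 fold change of 0.04. The median ran from -0.059 to 0.19 with 1 array left out (-0.059 with KO line 1 left out), and was -0.065 with the lower 60% left out and -0.088 with the mean of probe sets. The neighbouring desaturase genes had values of opposite sign. Fads1 read 1444 and 1244 in KO lines and 1020 and 930 in cKO lines (0.46, adjusted p = 0.256), and Fads2 read 934 and 654 in KO lines and 1022 and 1007 in cKO lines (-0.37, adjusted p = 0.508). In both genes the groups did not overlap. Of all genes tested, 21.4% had both KO values above both cKO values, as Fads1 had, and 21.2% had both below, as Fads2 had.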
